A study of Mus musculus with 7 samples.

Results

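The genes described here are the 10 genes of MHC class I antigen presentation chosen by name: the heavy chains H2-K1 and H2-D1 with their light chain B2m, the peptide loading genes Tap1, Tap2 and Tapbp, the inducible proteasome subunits Psmb8, Psmb9 and Psmb10, and the transactivator Nlrc5. All 10 were found among the 27179 genes of the deposited table, by mouse Entrez number, and all 10 passed the filter on low values, a mean of at least 1 FPKM (fragments per kilobase of exon, scaled to the assigned reads of the library) over the libraries. The samples were whole ankles of DBA1 mice, skin removed and frozen, and every mouse had collagen-induced arthritis, a model of rheumatoid arthritis raised by immunising with collagen. In 4 ankles the joint had been injected with a lipoplex, a lipid carrier, holding a synthetic copy (mimic) of miR-17-5p, a microRNA, and in 3 ankles with a lipoplex holding an irrelevant control microRNA. No ankle without a lipoplex was analysed here. Age, sex, disease stage and the time between injection and sampling were not given in the sources used here. Nor do the labels say if each ankle is from its own mouse, so p-values reflect only sample-to-sample spread, which may be technical. The comparison asks how raising miR-17-5p altered transcripts in the arthritic ankle.

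Class I molecules carry peptides of the cell's own proteins to the surface, where CD8 T cells and natural killer cells inspect them. The peptides are cut by the proteasome, moved into the endoplasmic reticulum by the transporter of Tap1 and Tap2, and loaded onto the heavy and light chain with the help of tapasin, the product of Tapbp. Interferons induce most of these genes, and Nlrc5 acts at the promoters of many of them. DBA/1 mice carry the q haplotype of the MHC, whereas the mm10 reference is from C57BL/6J, which carries b. Class I heavy chains differ between haplotypes and resemble each other, so reads of H2-K1, H2-D1 and the related heavy chains below may have been lost or split among them, and their values are uncertain.

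Depth per library ran from 27465276 to 31118975 assigned reads, and the least covered of the 10 genes, Psmb9, had from 840 to 1778 reads per library, so that counting error was small beside the spread between ankles. Of 13418 genes tested with limma on log2(FPKM + 0.5), 0 were called higher and 0 lower at a Benjamini-Hochberg adjusted p under 0.05, which is 0% of genes in either direction. With p unadjusted and under 0.05, 1003 genes stood higher and 1353 lower, and limma-voom on recovered reads called 0 and 0 as well, with 1024 and 1338 at an unadjusted p under 0.05. Without control replicate 2, 115 genes were called higher and 203 lower. The first principal component, with 52.7% of the variance, spread the libraries within each group.

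All 10 genes had a higher mean in the mimic ankles than in the control ankles, by 1.20-fold for Tap2 to 1.45-fold for H2-K1, whereas 48.3% of all genes tested had a higher mean. None of the 10 passed the test over all genes (limma adjusted p from 0.227 to 0.361). The median log2 fold change was 0.42, against -0.006 over all genes tested. At an unadjusted p under 0.05 there were 6 of the 10 (H2-K1, B2m, Tap1, Psmb9, Psmb10 and Nlrc5), against 7.48% of all genes. The groups did not overlap at 1 of the 10, Nlrc5, against 6.48% of all genes with every mimic library above every control library. The first count also moved with scaling, weights, covariates and a block for replicate number. It was 0 with that block and 3 with library weights. It was 10 with the muscle, neutrophil, macrophage or T cell marker list as a covariate. Both counts depended on single libraries. The count at an unadjusted p under 0.05 was 0 when mimic replicate 1 (5.85% of all genes), mimic replicate 4 (6.45%) or control replicate 2 (13.2%) was left out, and 1 when control replicate 3 was left out (5.6%). It was 9 on leaving out mimic replicate 2 (6.02%) or mimic replicate 5 (5.71%), and 7 on leaving out control replicate 5 (4.24%). Without control replicate 5, mimic and control libraries did not overlap at any of the 10 genes, against 8.46% of all genes, and without mimic replicate 5 they did not overlap at 6, against 8.47%. With any other library left out the count stayed at 1, against 8.17%, 8.97% and 8.99% of all genes without mimic replicate 1, 2 and 4, and 18.5% and 9.58% without control replicate 2 and 3. With each library left out in turn, the 10 genes kept a higher mean in the mimic ankles.

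**Figure D1:**
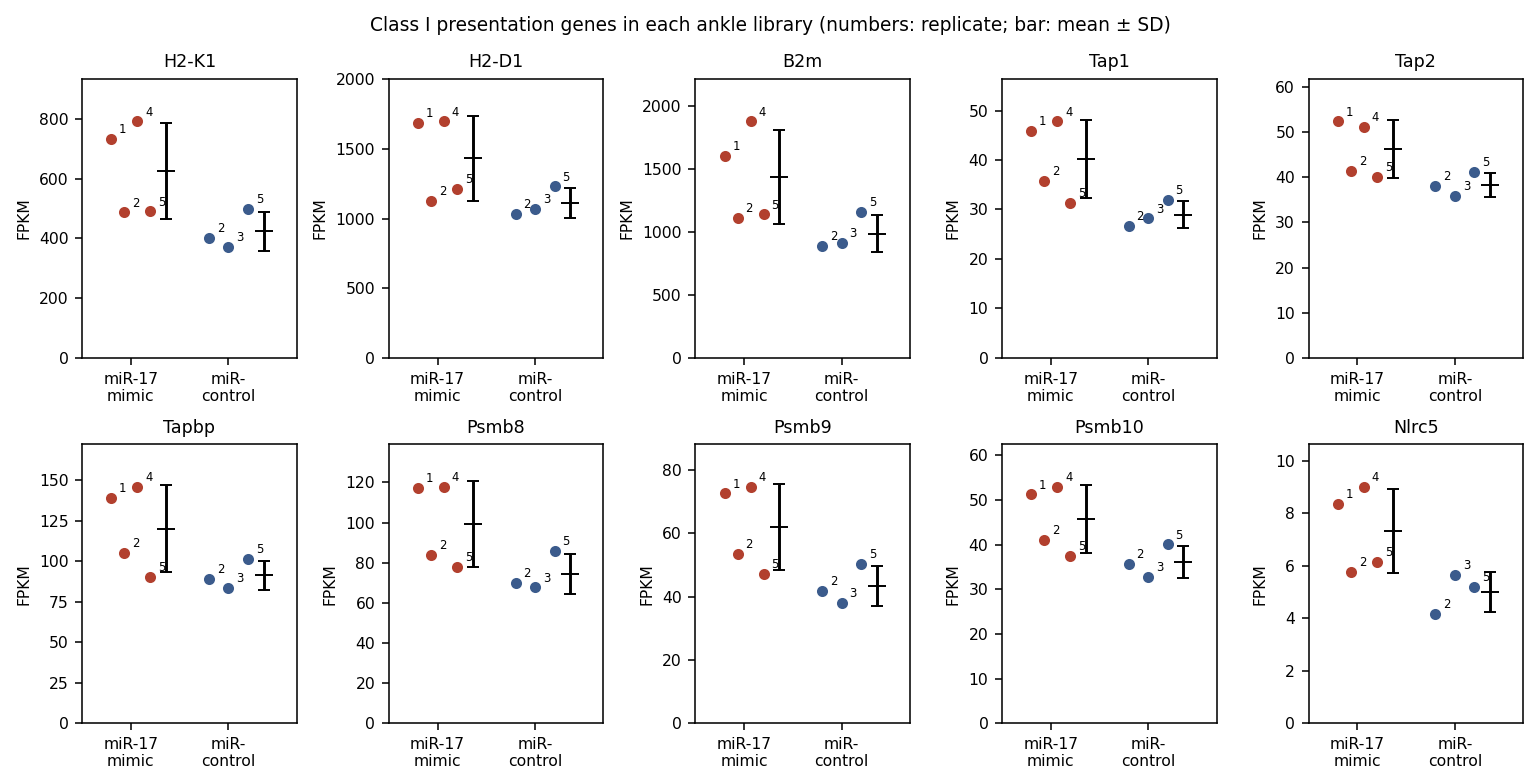
FPKM of the 10 class I presentation genes (y axis, one panel per gene) in the 4 miR-17 mimic ankles and the 3 miR-control ankles, with the replicate number beside each point and the mean ± SD as a bar. Mimic replicates 1 and 4 stand highest in every panel, and mimic replicate 5 lies below control replicate 5 in 9 of the 10 panels.

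The spread within the mimic group was alike across the genes. Mimic replicates 1 and 4 were the highest pair of the 7 libraries at 10 of 10 genes, and each of them lay above every control library at all 10. Mimic replicate 2 lay above every control library at 6 genes and mimic replicate 5 at 1. Among the controls, replicate 5 was the highest at 9 genes and replicate 3 at the remaining one, Nlrc5. On the log2 scale, each gene's profile over the 7 libraries correlated with the mean of the other 9 at a Pearson r between 0.90 (Nlrc5) and 0.99 (Psmb8), given as a description over libraries that also share their depth and tissue make-up.

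miR-17-5p, whose hairpin lies on mouse chromosome 14, has the mature sequence below (RefSeq, GRCm38.p6, chr14:115043684-115043706, plus strand), shown because its seed, bases 2 to 8, in capitals, pairs with target transcripts.
mmu-miR-17-5p: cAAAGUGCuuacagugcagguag
The longest annotated 3 prime UTR of the 10 genes (GENCODE, mouse release M21) held 0 matches to this seed in 10 genes, searching for the letters GCACTTT or CACTTTA on the transcript strand. Of 12495 tested genes with such a UTR, 21.4% held a match. The UTRs of the 10 genes were short, with a median of 449 bases against 1145 bases over all tested genes, and came from the C57BL/6J reference.

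Transcripts of the class I chains were the most abundant of the 10. H2-K1, a classical heavy chain (mm10, chr17:33996012-34000333, minus strand), had 732, 487, 791 and 489.9 FPKM in mimic replicates 1, 2, 4 and 5, against 402, 370.2 and 497 FPKM in control replicates 2, 3 and 5. The groups overlapped, since control replicate 5 stood above mimic replicates 2 and 5. H2-K1 averaged 625 ± 159.6 FPKM in mimic ankles (SD, n = 4) and 423 ± 66.1 FPKM in control ankles (SD, n = 3), and its log2 fold change was 0.54 (SE 0.21, 95% interval 0.042 to 1.04, limma adjusted p = 0.260). H2-D1, the other classical heavy chain (chr17:35263094-35267497, plus strand), had 1688, 1129, 1696 and 1211 FPKM in the mimic ankles, against 1032, 1067 and 1230.2 FPKM in the control ankles. Its log2 fold change was 0.35 (SE 0.18, limma adjusted p = 0.361), the highest adjusted p of the 10. The gene model of H2-D1 shares 503 bases of exon with a gene on the other strand that has no symbol here, and reads of the pair cannot be told apart.

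B2m, the light chain that every class I heavy chain needs to reach the surface (chr2:122147687-122153082, plus strand), lies outside the MHC. B2m had 1604, 1111, 1875 and 1138 FPKM in the mimic ankles, against 888, 911 and 1157 FPKM in the control ankles. Mimic replicates 1 and 4 stood apart above, and the other mimic libraries lay between control replicates 3 and 5. The log2 fold change of B2m was 0.51 (SE 0.22, 95% interval 0.003 to 1.02, limma adjusted p = 0.282). Set against the summed FPKM of H2-K1 and H2-D1 in the same library, B2m stood at a ratio of 0.693 ± 0.042 in mimic ankles (SD, n = 4) and 0.641 ± 0.026 in control ankles (SD, n = 3), with overlapping groups.

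The promoter windows of H2-K1 and H2-D1 (RefSeq, GRCm38.p6, 250 bases before to 50 after the start) are shown because they are alike and hold a letter pattern that few promoters hold. Capitals mark a binding site of NF-kB, whose letters were searched exactly as they stand there. These letters were found in both and in 0.107% of 32851 promoter windows searched on both strands. Other forms of the NF-kB site were not searched, so this is not the share of windows with any such site. The B2m window is shown beside those of H2-K1 and H2-D1. Its capitals mark the interferon-stimulated response element, searched as GAAA, any 2 bases and GAAA, which 3.44% of windows held.
H2-K1, chr17:34000284-34000583, minus strand: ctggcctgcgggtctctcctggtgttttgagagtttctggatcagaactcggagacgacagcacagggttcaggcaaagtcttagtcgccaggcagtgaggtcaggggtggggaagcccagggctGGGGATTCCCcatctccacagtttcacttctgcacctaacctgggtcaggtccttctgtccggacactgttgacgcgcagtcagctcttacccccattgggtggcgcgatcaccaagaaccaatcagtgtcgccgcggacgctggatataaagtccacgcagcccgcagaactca
H2-D1, chr17:35262844-35263143, plus strand: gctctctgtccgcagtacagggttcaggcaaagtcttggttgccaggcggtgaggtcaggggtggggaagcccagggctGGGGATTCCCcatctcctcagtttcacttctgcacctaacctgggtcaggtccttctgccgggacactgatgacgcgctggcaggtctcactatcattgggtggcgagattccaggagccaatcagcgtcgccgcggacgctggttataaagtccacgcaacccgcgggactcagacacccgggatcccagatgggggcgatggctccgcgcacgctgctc
B2m, chr2:122147437-122147736, plus strand: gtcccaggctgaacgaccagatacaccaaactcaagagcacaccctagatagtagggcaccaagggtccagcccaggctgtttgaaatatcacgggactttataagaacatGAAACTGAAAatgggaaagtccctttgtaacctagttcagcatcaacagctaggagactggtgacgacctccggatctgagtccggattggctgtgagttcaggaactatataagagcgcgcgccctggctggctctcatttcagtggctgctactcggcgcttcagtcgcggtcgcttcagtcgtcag
Windows were given for 8 of the 10 genes, with none for Tap2 and Nlrc5. The box CCAAT, bound by NF-Y, was in 6 of these 8 and in 37.4% of all windows. That count is of genes and that share is of windows. Tap1 and Psmb9, both among the 6, have the same box, since their windows overlap. The interferon-stimulated response element was in 1 of the 8, B2m, and the gamma-interferon activated site TTCNNNGAA in 1, Psmb8, against 8.30% of all windows. That count of the interferon-stimulated response element covers only the spacing searched, given above for B2m. Other forms of the element were not searched, so the windows of the other genes, H2-K1 and H2-D1 among them, may hold one. Matches to different patterns did not overlap. These are matches of letters in the C57BL/6J reference, not measured binding.

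Of the peptide loading genes, Tap1, a subunit of the transporter that moves peptides into the endoplasmic reticulum (chr17:34187556-34197225, plus strand), had 45.9, 35.7, 47.8 and 31.3 FPKM in mimic replicates 1, 2, 4 and 5, against 26.7, 28.2 and 32.0 FPKM in control replicates 2, 3 and 5. Mimic replicates 1, 2 and 4 lay above every control, and replicate 5 just below control replicate 5. Tap1 averaged 40.2 ± 7.93 FPKM in mimic ankles (SD, n = 4) and 29.0 ± 2.72 FPKM in control ankles (SD, n = 3), or 0.45 in log2 fold change (SE 0.16, 95% interval 0.083 to 0.81). Its limma adjusted p of 0.227 was the lowest of the 10, and its p ranked 1331 among the genes tested.

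Tap2, the other subunit of the transporter (chr17:34204479-34216321, plus strand), had 52.4, 41.4, 51.1 and 40.1 FPKM in the mimic ankles, against 38.0, 35.8 and 41.2 FPKM in the control ankles. With a log2 fold change of 0.26 (SE 0.11, 95% interval -0.006 to 0.52, limma adjusted p = 0.290), Tap2 had the smallest difference of the 10. Tapbp (chr17:33919478-33929290, plus strand), which encodes tapasin, the bridge between the transporter and an empty class I molecule, had 139, 105, 146 and 90.0 FPKM in the mimic ankles, against 89.0, 83.5 and 101 FPKM in the control ankles. Its log2 fold change was 0.37 (SE 0.18, limma adjusted p = 0.325), and the groups overlapped. Tap2 shares 513 bases of exon with a gene on the other strand that has no symbol here, and Tapbp shares 386 bases with the predicted gene Gm19412, so part of their reads is uncertain.

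Psmb9, Tap1, Psmb8 and Tap2 lie side by side within 34.2 kb of chromosome 17 (chr17:34182099-34216321). Psmb9 and Tap1 point away from each other with 225 bases between their gene models, and their promoter windows share 275 bases. The Tap1 window is shown because it holds the starts of both genes, with capitals on the cyclic AMP response element-like pattern TGACGNNA, which 6.61% of windows held.
Tap1, chr17:34187306-34187605, plus strand: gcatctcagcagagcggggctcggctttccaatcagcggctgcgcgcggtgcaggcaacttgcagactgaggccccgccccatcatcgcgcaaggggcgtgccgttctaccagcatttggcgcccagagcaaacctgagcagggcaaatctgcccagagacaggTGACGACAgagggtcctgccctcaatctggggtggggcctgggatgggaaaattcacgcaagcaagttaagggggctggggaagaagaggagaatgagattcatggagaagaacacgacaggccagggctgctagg
Of the 10 genes, 7 are on chromosome 17. B2m on chromosome 2, and Psmb10 and Nlrc5 on chromosome 8, followed the same order of libraries in that mimic replicates 1 and 4 were the highest pair.

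The inducible subunits Psmb8, Psmb9 and Psmb10 replace the standard catalytic subunits Psmb5, Psmb6 and Psmb7 to form the immunoproteasome, whose cuts favour peptides that class I molecules bind. Psmb8 (chr17:34198195-34201454, plus strand) had 117, 83.7, 118 and 78.0 FPKM in mimic replicates 1, 2, 4 and 5, against 69.9, 67.7 and 85.9 FPKM in control replicates 2, 3 and 5. The log2 fold change of Psmb8 was 0.39 (SE 0.18, limma adjusted p = 0.300). Psmb9 (chr17:34182099-34187330, minus strand) had 72.7, 53.6, 74.7 and 47.2 FPKM in the mimic ankles, against 41.9, 37.9 and 50.3 FPKM in the control ankles.

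For Psmb9 the log2 fold change was 0.50 (SE 0.18, 95% interval 0.067 to 0.92, limma adjusted p = 0.242). Psmb10 (chr8:105935728-105938392, minus strand) had 51.2, 41.0, 52.9 and 37.6 FPKM in the mimic ankles, against 35.6, 32.9 and 40.0 FPKM in the control ankles. Its log2 fold change was 0.32 (SE 0.14, limma adjusted p = 0.281). In all of these subunits control replicate 5 reached into the range of the mimic ankles.

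The standard subunits had means in the mimic ankles at or below those in the control ankles. Psmb5, Psmb6 and Psmb7 differed on the log2 scale by -0.15 (SE 0.073), -0.003 (SE 0.076) and -0.051 (SE 0.075), with 95% intervals of -0.32 to 0.023, -0.18 to 0.17 and -0.23 to 0.12 (limma adjusted p = 0.336, 0.986 and 0.729). The sign of Psmb6 turned with median-of-ratios scaling (0.009) and quantile normalization (0.026). Of the 11 structural subunits of the core, Psma1 to Psma7 and Psmb1 to Psmb4, 0 were at an unadjusted p under 0.05. Over all genes 7.48% were higher and 10.1% lower at that threshold. The median log2 fold change of the 11 was -0.060. Psmb2, the one with the smallest p, averaged 97.1 ± 4.34 FPKM in mimic ankles and 107 ± 3.12 FPKM in control ankles (limma adjusted p = 0.287).

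Within a library, the ratio of an inducible subunit to its standard counterpart is free of scaling between libraries. Psmb8 over Psmb5 stood at 3.65, 2.58, 3.89 and 2.51 in mimic replicates 1, 2, 4 and 5, against 1.93, 2.16 and 2.29 in control replicates 2, 3 and 5. Every mimic ankle was above every control ankle, and the mean was 1.46-fold higher in mimic ankles on the log scale. Psmb8 by itself overlapped between the groups, and Psmb5 was highest in control replicate 5 (37.6 FPKM). How often ratios of other gene pairs stand apart was not computed. Psmb9 over Psmb6 stood at 0.740, 0.490, 0.750 and 0.454 in mimic ankles, against 0.372, 0.397 and 0.496 in control ankles, with overlapping groups. Psmb10 over Psmb7 stood at 0.541, 0.399, 0.547 and 0.362 in mimic ankles, against 0.314, 0.335 and 0.407 in control ankles, again overlapping. The ratios are given as a description, with no test. Psmb8 transcript thus outnumbered its counterpart per length in all 7 libraries, whereas Psmb9 and Psmb10 stayed below theirs in all 7.

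**Figure D2:**
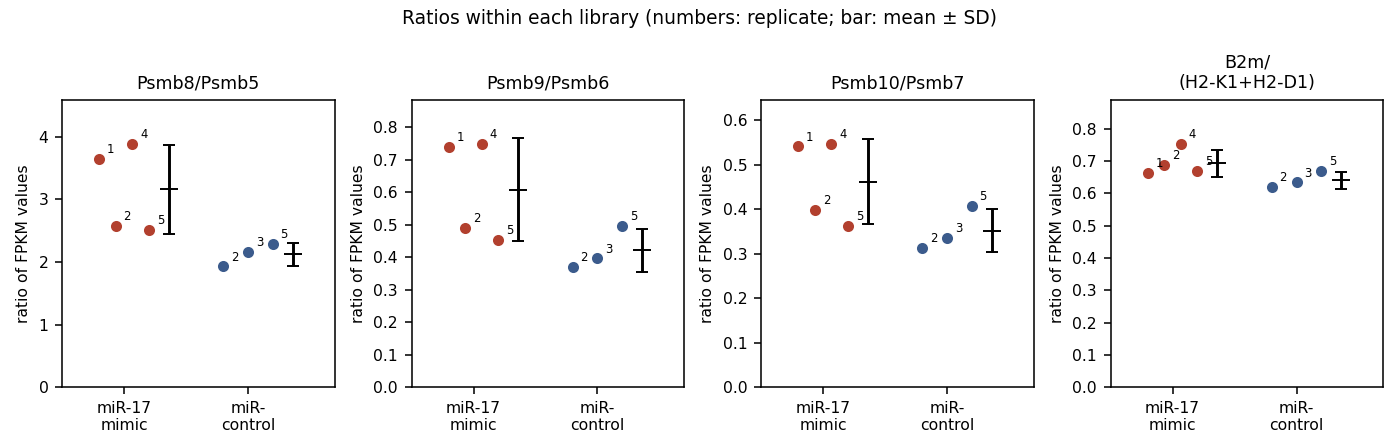
Ratios of FPKM values within each library (y axis) for the 3 pairs of inducible over standard proteasome subunit and for B2m over the sum of H2-K1 and H2-D1, in mimic and control ankles, with the replicate number beside each point and the mean ± SD as a bar. The groups are apart for Psmb8 over Psmb5 and overlap for the other ratios.

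Psme1 and Psme2, the subunits of the interferon-inducible proteasome activator PA28, averaged 106 ± 19.1 and 82.0 ± 11.3 FPKM in mimic ankles (SD, n = 4), against 86.1 ± 9.45 and 67.7 ± 6.73 FPKM in control ankles (SD, n = 3). Their log2 fold changes were 0.29 (SE 0.15) and 0.27 (SE 0.12), with limma adjusted p = 0.358 and 0.308. Of the 9 activators and assembly factors listed, 0 were higher and 1 lower at an unadjusted p under 0.05, against 7.48% and 10.1% of all genes, so that these counts did not stand above the background. The lower gene was Psmg1, an assembly chaperone, at 20.9 ± 0.92 FPKM in mimic ankles and 24.5 ± 1.63 FPKM in control ankles (limma adjusted p = 0.189). Among 11 tested partners in loading and peptide trimming, which include Calr, Canx, Pdia3 and Erap1, 0 were at an unadjusted p under 0.05. Over all genes 7.48% were higher and 10.1% lower at that threshold. A higher mean in mimic ankles was found for 2 of the 11, against 48.3% of all genes. The smallest p there belonged to Npepps and Tpp2, cytosolic peptidases, with log2 fold changes of -0.10 (SE 0.051) and -0.16 (SE 0.082).

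Nlrc5, which acts at class I promoters together with the RFX factors (chr8:94472763-94527272, plus strand), was the least abundant of the 10. Nlrc5 had 8.37, 5.77, 9.01 and 6.16 FPKM in mimic replicates 1, 2, 4 and 5, against 4.18, 5.64 and 5.21 FPKM in control replicates 2, 3 and 5. All mimic ankles lay above all control ankles, with mimic replicate 2 just above control replicate 3. It averaged 7.33 ± 1.60 FPKM in mimic ankles (SD, n = 4) and 5.01 ± 0.75 FPKM in control ankles (SD, n = 3), or 0.49 in log2 fold change (SE 0.17, 95% interval 0.088 to 0.90, limma adjusted p = 0.229).

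Of 15 regulators of class I transcription listed, 3 were higher at an unadjusted p under 0.05, against 7.48% of all genes, 1 was lower, against 10.1%, and 0 passed over all genes (limma). Stat2 and Irf9, parts of the interferon signalling chain, were among the higher ones. Stat2 had 28.7, 30.7, 38.0 and 26.8 FPKM in the mimic ankles, against 17.5, 20.2 and 21.7 FPKM in the control ankles, or 0.63 in log2 fold change (SE 0.13, limma adjusted p = 0.174). Irf9, the DNA-binding partner of Stat2 at interferon response elements, averaged 35.5 ± 3.36 FPKM in mimic ankles and 25.5 ± 3.76 FPKM in control ankles, and its log2 difference was 0.48 (SE 0.11, limma adjusted p = 0.174). At 3 of the 15, Stat2 and Irf9 among them, every mimic library lay above every control library, against 6.48% of all genes. At 1, Nfkb1, every mimic library lay below every control library, against 8.84%. Stat2 and Irf9 were named for the smallest p of the list. Irf1, an interferon-induced activator of class I genes named after its values were seen, averaged 27.2 ± 5.34 FPKM in mimic ankles and 23.9 ± 3.56 FPKM in control ankles, with overlapping groups (limma adjusted p = 0.590). The lower regulator was Nfkb1, a subunit of NF-kB, with a log2 fold change of -0.26 (SE 0.082).

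All 4 tested genes of the interferon gamma axis had a lower mean in mimic ankles. Ifng itself stood between 0 and 0.14 FPKM in the mimic ankles and between 0 and 0.11 FPKM in the control ankles, below the filter. Ifngr2, a chain of its receptor, averaged 43.3 ± 2.29 FPKM in mimic ankles and 53.0 ± 5.35 FPKM in control ankles (log2 fold change -0.29, SE 0.082, limma adjusted p = 0.186). For this chain every mimic library lay below every control library, against 8.84% of all genes. Jak2, the kinase on that chain, showed a log2 difference of -0.34 (SE 0.12), and without control replicate 2 it passed (-0.49, limma adjusted p = 0.0418). Of the 4, 3 were lower at an unadjusted p under 0.05, against 10.1% of all genes, and 0 passed over all genes (limma); without control replicate 2 the count passing was 1, against 1.51% of all genes called lower.

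The other class I heavy chains had a larger median difference than the 10 genes, 0.66 against 0.42 in log2 fold change, and the gap was not tested. Of 20 listed, 17 were in the table and 12 were tested. At an unadjusted p under 0.05, 9 of these were higher, against 7.48% of all genes, and 1 was lower, against 10.1%. At 7 every mimic library lay above every control library, against 6.48% of all genes, while at 1, H2-Q10, every mimic library lay below, against 8.84%. With single libraries left out the count higher ranged from 6 (without control replicate 3, 5.6% of all genes) to 10 (without mimic replicate 2, 6.02%). Over all genes 0 passed (limma), and without control replicate 2 there were 2, Mr1 and Cd1d1, against 0.857% of all genes called higher.

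H2-T22, a non-classical heavy chain recognised by some gamma delta T cells (chr17:36038409-36042702), had 66.9, 53.5, 80.9 and 43.8 FPKM in mimic replicates 1, 2, 4 and 5, against 33.2, 30.3 and 36.5 FPKM in control replicates 2, 3 and 5. All mimic ankles stood above all control ankles, and the log2 fold change was 0.83 (SE 0.20, 95% interval 0.37 to 1.30, limma adjusted p = 0.174). H2-T23, which encodes Qa-1, a ligand of natural killer cell receptors, was named after its values were seen. H2-T23 averaged 150.0 ± 44.4 FPKM in mimic ankles (SD, n = 4) and 81.7 ± 4.42 FPKM in control ankles (SD, n = 3), or 0.82 in log2 fold change (SE 0.22).

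Mr1, which presents vitamin B metabolites to mucosal-associated invariant T cells and lies on chromosome 1 outside the MHC, had 11.6, 11.9, 10.6 and 11.7 FPKM in the mimic ankles, against 9.50, 8.52 and 7.27 FPKM in the control ankles. The mimic ankles lay close together here, and mimic replicate 4 was the lowest of them. The log2 difference of Mr1 was 0.42 (SE 0.092, limma adjusted p = 0.174), or 0.51 without control replicate 2 (limma adjusted p = 0.0430). H2-Q10, known as a secreted class I molecule of the liver and named after its values were seen, stood the other way, with 16.8 ± 2.76 FPKM in mimic ankles and 25.2 ± 6.35 FPKM in control ankles (log2 fold change -0.56, SE 0.18, limma adjusted p = 0.215). H2 genes on chromosome 17 resemble each other, and the reads of H2-Q and H2-T genes are uncertain for the reason given for H2-K1.

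**Figure D3:**
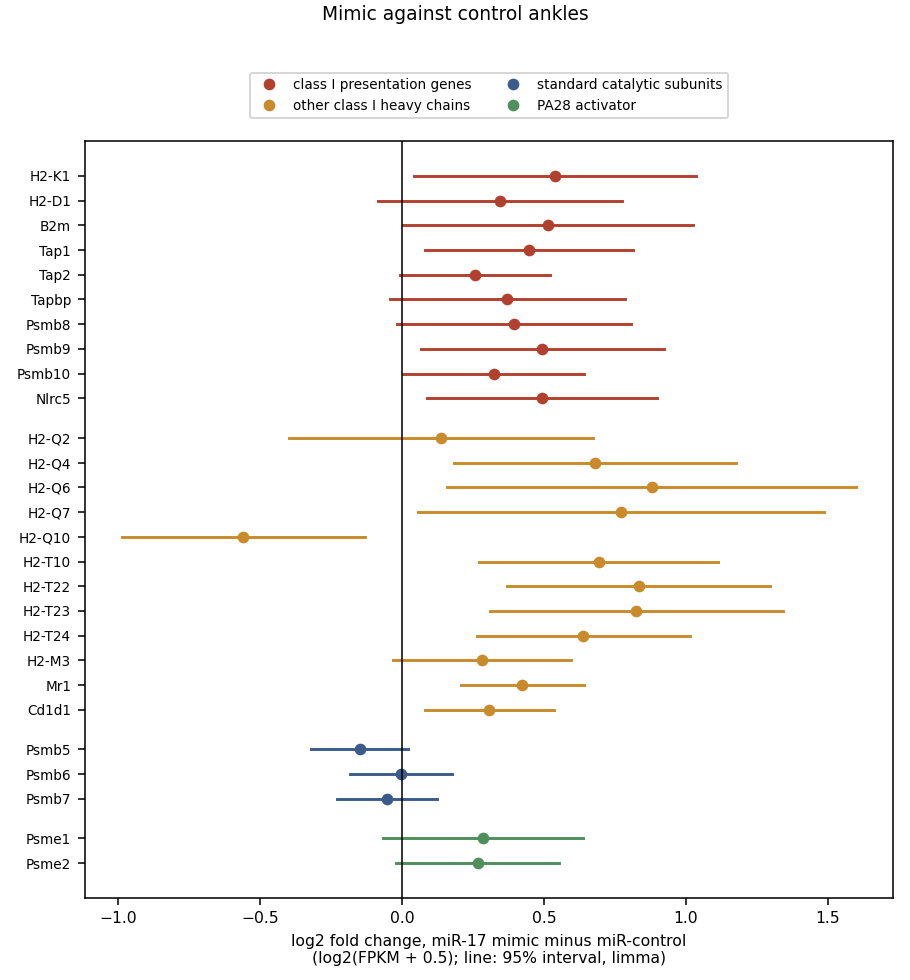
Log2 fold change of miR-17 mimic minus miR-control ankles (x axis, log2(FPKM + 0.5)) with its 95% interval from limma, for the 10 class I presentation genes, the 12 other class I heavy chains tested, the 3 standard catalytic subunits and the 2 PA28 subunits. The class I presentation genes lie between 0.26 and 0.54, most other heavy chains lie further to the right, H2-Q10 lies below 0, and the standard subunits lie at or just below 0.

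Ordered by mean level over the 7 libraries, H2-D1 (1293 FPKM) and B2m (1241 FPKM) stood first, followed by H2-K1 (538 FPKM), Tapbp (108 FPKM), Psmb8 (88.6 FPKM), Psmb9 (54.1 FPKM), Tap2 (42.9 FPKM), Psmb10 (41.6 FPKM), Tap1 (35.4 FPKM) and Nlrc5 (6.33 FPKM). Each gene exceeded the next in all 7 libraries, except that H2-D1 exceeded B2m in 6 of 7 and Tap2 exceeded Psmb10 in 6 of 7. Differences in level between genes were not tested.

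Genes outside the group that followed its mean profile over the 7 libraries most closely were Nmi (Pearson r 0.982), Batf2 (0.980), Ly6e (0.977), the heavy chain H2-Q4 (0.977) and Snx22 (0.977), taken as the 5 highest of all tested genes with an established symbol. H2-Q4 had 121, 73.1, 131 and 83.3 FPKM in the mimic ankles, against 59.1, 57.1 and 69.5 FPKM in the control ankles. Ly6e had 506, 409, 611 and 344 FPKM in the mimic ankles, against 283, 299 and 365 FPKM in the control ankles. Both stood highest in mimic replicates 1 and 4, which follows from how they were picked.

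**Figure D4:**
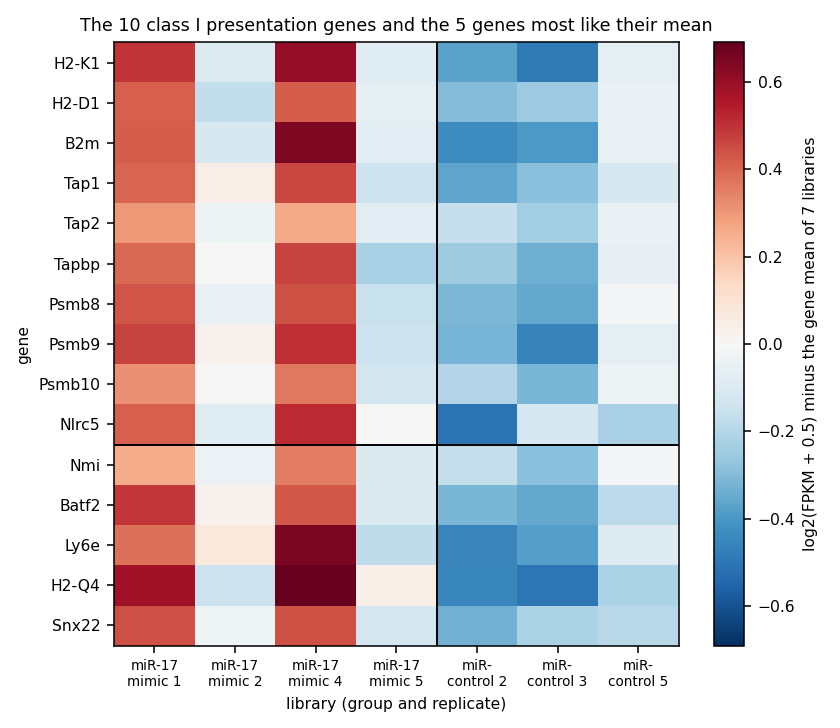
Centred log2(FPKM + 0.5) of the 10 class I presentation genes and of the 5 genes most like their mean profile (rows) in the 4 mimic and 3 control libraries (columns), with red above and blue below a gene's mean over the 7 libraries. Mimic replicates 1 and 4 are red in every row, and control replicates 2 and 3 are blue in every row. For the 5 most similar genes this follows from how they were picked.

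Cd8a, a chain of the T cell co-receptor for class I, was scarce in these ankles. It stood between 0.13 and 0.44 FPKM in mimic ankles and between 0.23 and 0.36 FPKM in control ankles, and the other chain, Cd8b1, was below the filter too. The list of class I receptors and their relatives had 3 tested genes, Klrd1, Pirb and Lilrb4a. Of these, Pirb and Lilrb4a were lower at an unadjusted p under 0.05, against 10.1% of all genes, and 0 passed over all genes (limma). Lilrb4a, a relative of class I receptors not itself established as one, averaged 45.7 ± 9.44 FPKM in mimic ankles and 73.8 ± 18.0 FPKM in control ankles (log2 fold change -0.68, SE 0.21). Pirb, the mouse inhibitory receptor for class I on myeloid cells, averaged 34.9 ± 8.09 FPKM in mimic ankles and 48.2 ± 6.65 FPKM in control ankles (log2 fold change -0.48, SE 0.19).

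In a bulk sample, fewer cells of a type and less RNA per cell cannot be told apart. The summed level of the macrophage markers, over 8 of 8 genes, was 1535, 1144, 1493 and 1157 FPKM in mimic replicates 1, 2, 4 and 5, against 1338, 1277 and 1454 FPKM in control replicates 2, 3 and 5. The sum was highest in mimic replicates 1 and 4, and the abundant C1qa, C1qb and C1qc, the markers with these libraries as the highest pair, carried it. Of the 8 markers, 5 had a lower mean in mimic ankles, and Csf1r, at 129, 102, 133 and 122 FPKM in mimic replicates 1, 2, 4 and 5 against 145, 154 and 156 FPKM in control replicates 2, 3 and 5, was lower in every mimic ankle. Between the groups the sums overlapped, and the median of the 8 log2 differences was -0.047. With the mean of this list as a covariate, chosen after the data were seen, the median of the 10 class I genes was 0.54. T cell markers summed to between 12.2 and 21.8 FPKM in mimic ankles and between 14.4 and 18.9 FPKM in control ankles, and natural killer cell markers to between 6.11 and 17.8 FPKM in mimic ankles and between 11.5 and 16.5 FPKM in control ankles. With the T cell list as a covariate the median of the class I genes was 0.52. Neutrophil markers, mostly S100a8 and S100a9 by level, summed to between 1228 and 3058 FPKM in mimic ankles and between 2928 and 5718 FPKM in control ankles. All 8 had a lower mean in mimic ankles, whereas 48.3% of all genes had a higher mean, and their median log2 difference was -0.98. At 2 of the 8, Csf3r and Cxcr2, every mimic library lay below every control library, against 8.84% of all genes. At an unadjusted p under 0.05, 5 were lower, against 10.1%, and 0 passed over all genes (limma). With the neutrophil list as a covariate the median of the class I genes was 0.69, against 0.42 without it. Their limma adjusted p then ran from 0.452 to 0.758, against 0.227 to 0.361 without it. This list was itself lower in mimic ankles, so list and group are hard to tell apart in 7 libraries.

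Skeletal muscle markers summed to between 2209 and 8256 FPKM in mimic ankles and between 942 and 5684 FPKM in control ankles, and the sum was lowest of the mimic ankles in replicates 1 and 4. With the muscle list as a covariate the median of the class I genes was 0.61. Dendritic cell markers summed to between 21.1 and 24.8 FPKM in mimic ankles and between 18.7 and 27.0 FPKM in control ankles, B and plasma cell markers to between 115 and 159 FPKM in mimic ankles and between 123 and 153 FPKM in control ankles. Endothelial markers summed to between 311 and 332 FPKM in mimic ankles and between 281 and 316 FPKM in control ankles. Fibroblast markers summed to between 18728 and 19895 FPKM in mimic ankles and between 16659 and 18633 FPKM in control ankles. Col1a1 and Col1a2 made up most of that sum and were the 2 of 8 with every mimic library above every control library, while Col3a1, Pdgfra and Thy1 had lower means in mimic ankles (log2 differences -0.13, -0.11 and -0.11). Erythroid markers, 7 of 8 in the table, summed to between 217 and 1720.2 FPKM in mimic ankles and between 153 and 656 FPKM in control ankles. No marker of these lists was at 0 in any library. What part these cell types have in the class I levels was not tested beyond the covariates given here.

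**Figure D5:**
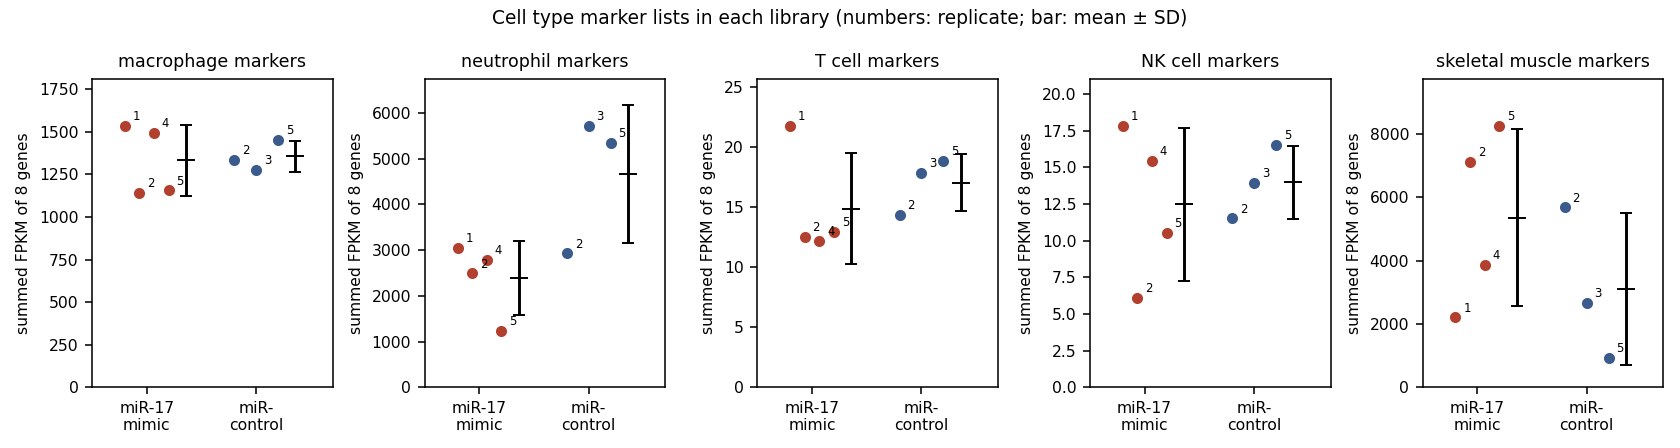
Summed FPKM of 8 marker genes (y axis) for macrophages, neutrophils, T cells, natural killer cells and skeletal muscle in the 4 mimic and 3 control ankles, with the replicate number beside each point and the mean ± SD as a bar. The macrophage sum is highest in mimic replicates 1 and 4, and the neutrophil sum is highest in control replicates 3 and 5.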

How the data were processed

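RNA of 7 whole ankles was sequenced, 4 given the miR-17-5p mimic and 3 the control microRNA. The values are FPKM per gene and library, deposited by the authors with the joined exon length (the other column used) and exon positions, per the file headers. The submitters' processing notes list the builds mm10 and GRCm38 and, without roles, STAR 2.5.2b, bcl2fastq 2.20, DESeq2 1.14.1, Subread and featureCounts. Strand setting and annotation release were not given in the sources used here. Reads of overlapping or antisense genes therefore cannot be told apart. FPKM times length gave whole multiples of 1 step per library, within 0.01 of a read, for 100% of values, and these reads give the depth.

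Symbols came from a RefSeq table of the same build, which matched 25275 of 27179 Entrez numbers. The test was limma 3.58.1 in R 4.3.3 (eBayes, trend by mean level) on log2(FPKM + 0.5) over genes whose mean reached 1 FPKM, with group as the single factor, Benjamini-Hochberg adjustment over all tested genes and a 2-sided threshold of 0.05. Fold changes are mimic minus control on that scale, which understates low genes. The 10 genes and the lists were chosen with earlier results of these data known. Named genes are the 10, the 2 with the smallest p of each pathway list, the standard and PA28 subunits, the 5 most similar profiles, and those said to be named after their values were seen. The last set of names also takes in Nfkb1 and Cd1d1. The values of 1 listed regulator are not reported here. The test was checked on simulated data. Alternatives were pseudocounts of 0.1 and 1, quantile normalization, median-of-ratios scaling, no filter or a minimum mean of 5 FPKM, and weights per library. Others were no trend, a block for replicate number, and the muscle, neutrophil, macrophage and T cell lists as covariates. The last were limma-voom on recovered reads and leaving out each library. Python 3.11.15, pandas 2.3.3 and matplotlib 3.10.9 were used.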

Additional observations from a re-analysis of the deposited data

How the results depend on the processing

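None of the 10 class I genes passed over all genes under any of the 21 alternatives, and each of them kept a higher mean in mimic ankles in all 21. Their median log2 fold change, 0.42, ranged from 0.33 to 0.53 with single libraries left out, and came to 0.69 with the neutrophil list as a covariate and 0.094 under the replicate block. In the block the group difference comes from replicate numbers 2 and 5 alone, the numbers found in both groups. The labels do not say if libraries with the same number pair. Deviations from the group means correlated at r = 0.54 for number 2 and -0.43 for number 5. Between libraries of different numbers r ran from -0.52 to 0.53, so these values cannot show whether the numbers pair. No gene passed over all genes with the replicate block (0 higher and 0 lower). The number of the 10 at an unadjusted p under 0.05 and higher, 6 beside 1003 of all genes, was 3 beside 1406 with library weights, 0 beside 399 with the replicate block, 8 beside 1156 and 925 with median-of-ratios scaling and quantile normalization, and 10 beside 677, 495, 982 and 763 with the muscle, neutrophil, macrophage and T cell lists as covariates. Counts called over all genes ranged from 0 to 115 higher and from 0 to 203 lower with single libraries left out. They were 2 higher with the neutrophil list or, chosen after the data were seen, the macrophage list as a covariate, H2-Q4 being one of those under the macrophage list (0.84, limma adjusted p = 0.0375), and 1 lower with no filter on low values. Differences of the log2 ratio with single libraries left out lay between 0.43 and 0.64 for Psmb8 over Psmb5, 0.39 and 0.63 for Psmb9 over Psmb6, and 0.29 and 0.48 for Psmb10 over Psmb7. Signs turned for Psmb6 with median-of-ratios scaling (0.009), quantile normalization (0.026), library weights (0.028) and left-out libraries (-0.056 to 0.062), for Psmb7 without control replicate 2 (0.018, with left-out libraries from -0.087), and with the replicate block for Psme1 (-0.022) and Irf1 (-0.041), and the cause was not tested. Batf2 and Snx22 fall below a mean of 5 FPKM and had no value there. These comparisons rest on 3 and 4 ankles, and the source of the spread between ankles was not tested.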
